A study of Mus musculus with 14 samples.

Results

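Cassette exons whose loss or gain shifts the reading frame, and which spinal cord transcripts carry only in part, were collected from 13189 cassette exon events measured by RNA-seq of mouse whole spinal cord (WSC). An event is an internal exon that is either joined to both of its neighbours or skipped, and 1 exon can appear in several events with different neighbours. The exons had a length of 31 to 250 nt that is not divisible by 3, at least 10 junction reads in each of 2 RNA-seq libraries, and a mean inclusion of 0.1 to 0.9. With m as the average of the reads on both inclusion junctions and s as the reads on the skipping junction, inclusion was m/(m + s). The rule selected 937 events in 769 genes, which is 9.97% of the 9396 events with that coverage, and the 937 events hold 893 distinct exons. The exons were thus chosen by their length, junction reads and inclusion, and these values are given below as a description, without a test.

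The RNA-seq libraries came from 1 male and 1 female mouse of the SOD1 WT transgenic strain Tg(SOD1)2Gur/J on a B6/SJL background, 12 weeks old, so both animals of the inclusion measurements carried the human SOD1 transgene and no library without it was used. NOVA crosslinking and immunoprecipitation (HITS-CLIP), which sequences the RNA fragments bound by the neuronal splicing factors NOVA1 and NOVA2, was available for the same exons from 12 libraries of 3-month-old C57BL/6 mice. The motoneuron (MN) libraries were made with antibodies to GFP from pooled spinal cords of hemizygous Chat:GFP-Nova mice of line #6 (4 libraries) and line #17 (4 libraries), in which a bacterial artificial chromosome with the Chat promoter drives GFP-tagged NOVA2 in cholinergic cells. The 4 WSC libraries were made from wild type spinal cord with antiserum to endogenous NOVA. The MN and WSC libraries thus also differ in antibody, in tagged against endogenous protein and in depth, and these differences cannot be told apart from the cell type.

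A cassette exon with a length divisible by 3 adds or removes amino acids and leaves the rest of the protein as it was. An exon of another length changes every codon that follows. If the new frame meets a stop codon well before the last exon junction, the transcript is a substrate of nonsense-mediated decay, the pathway that degrades mRNAs in which the ribosome stops upstream of an exon junction complex. A poison exon brings such a stop codon when it is included, and many genes of splicing factors carry one. Other exons lead to a stop codon when they are skipped. Close to the 3′ end of the coding sequence a frame shift can instead exchange the C terminus of the protein. NOVA binds clusters of YCAY (Y is C or U) and, as a rule, promotes inclusion when it binds downstream of an exon and skipping when it binds upstream or within it.

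Exons in which the shifted or inserted frame ends at once show what is measured here. The sequences below are written 5′ to 3′ in the direction of transcription from the mm9 reference. Capitals mark the stop codon that the included exon brings in the frame of the coding transcript to which it was added. The Hdac5 exon (chr11:102075239-102075350, minus strand) is shown whole, as is the Dlg1 exon (chr16:31847722-31847755, plus strand), and the Oprl1 exon is shown for its first 94 of 139 nt (chr2:181452660-181452753, plus strand).
Hdac5: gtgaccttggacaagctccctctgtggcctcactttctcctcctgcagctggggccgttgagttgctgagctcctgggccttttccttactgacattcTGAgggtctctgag
Dlg1: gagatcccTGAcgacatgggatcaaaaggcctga
Oprl1: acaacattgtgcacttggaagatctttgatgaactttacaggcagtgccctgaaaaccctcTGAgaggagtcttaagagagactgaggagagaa

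In the opposite arrangement the stop codon lies in the next exon and is read only when the cassette exon is left out. The first 60 nt of that next exon are shown for Snrpa1 (chr7:73215476-73215535, plus strand), Clk4 (chr11:51087062-51087121, plus strand) and A830018L16Rik (chr1:11508659-11508718, plus strand), with the stop codon of the shifted frame in capitals.
Snrpa1: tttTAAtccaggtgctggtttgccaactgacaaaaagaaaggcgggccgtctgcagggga
Clk4: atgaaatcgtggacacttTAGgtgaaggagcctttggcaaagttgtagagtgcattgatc
A830018L16Rik: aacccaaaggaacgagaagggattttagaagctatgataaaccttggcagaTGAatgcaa

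The exons that exchange the C terminus of calcium pumps of the plasma membrane form a paralogous pair of 154 nt each, in Atp2b1 (chr10:98481912-98482065, plus strand) and Atp2b3 (chrX:70805203-70805356, plus strand). Capitals mark the bases that differ between them, and 98 of the 154 positions (63.6%) are identical.
Atp2b1: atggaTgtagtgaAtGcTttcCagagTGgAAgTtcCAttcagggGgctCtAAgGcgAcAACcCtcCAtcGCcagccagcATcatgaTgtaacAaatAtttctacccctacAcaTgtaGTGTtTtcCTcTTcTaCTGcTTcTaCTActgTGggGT
Atp2b3: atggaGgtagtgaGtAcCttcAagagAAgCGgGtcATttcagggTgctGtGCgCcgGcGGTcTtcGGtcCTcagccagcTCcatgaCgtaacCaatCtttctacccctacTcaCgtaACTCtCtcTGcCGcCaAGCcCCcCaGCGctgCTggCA

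Stretches of 60 nt that drew the most NOVA tags in the intron next to 4 of the exons are shown for their YCAY content, with YCAY in capitals. They lie 320 nt upstream of the Oprl1 exon (chr2:181452280-181452339, plus strand), 115 nt upstream of the Ogfod2 exon (chr5:124563899-124563958, plus strand), 75 nt downstream of the Plekha6 exon (chr1:135195696-135195755, plus strand) and directly downstream of a Gria3 exon (chrX:39022793-39022852, plus strand).
Oprl1 upstream: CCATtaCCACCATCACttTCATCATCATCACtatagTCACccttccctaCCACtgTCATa
Ogfod2 upstream: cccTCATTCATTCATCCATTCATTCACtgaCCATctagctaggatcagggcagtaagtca
Plekha6 downstream: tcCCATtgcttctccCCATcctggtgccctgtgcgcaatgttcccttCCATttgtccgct
Gria3 downstream: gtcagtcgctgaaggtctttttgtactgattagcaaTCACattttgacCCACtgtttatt

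The exons had a median length of 104 nt, and 502 of the events left a remainder of 1 nt after division by 3 and 435 a remainder of 2 nt. The male library contributed 139672 junction reads at these events and the female library 120814. A single event had a median of 103 junction reads over both libraries, with a range of 20 to 56337. Both boundaries of 722 distinct exons (80.9%) were annotated as an exon in GENCODE vM1 of the same genome build. In 105 genes 2 or more distinct exons met the rule, and Nudt13, Anks3 and Prrg2 had 4 each.

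Inclusion was spread over the whole permitted range and was densest near its upper end. The quartiles of the mean inclusion were 0.283, 0.631 and 0.816. From 0.8 to 0.9 there were 260 events (27.7%), from 0.1 to 0.2 there were 153, and the least filled interval of that width, from 0.4 to 0.5, held 50. Among the 4666 events of the same length, frame and coverage, 959 lay below 0.1 and 2770 above 0.9, so the selected events are the minority that is neither nearly always skipped nor nearly always included. At the lower bound, Anks3 (0.1) and Golm1 (0.1001) lay just inside and Psma4 (0.0996) and Exoc2 (0.0983) just outside. At the upper bound, Emp3 (0.9) and Ell2 (0.9) lay just inside and Cdc42se2 (0.9002) and Smarce1 (0.9009) just outside.

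Inclusion differed between the libraries by a median of 0.0975, by 0.1 or less in 478 events and by more than 0.3 in 100. The 66 events with 500 or more junction reads differed by a median of 0.0477 and the 198 events with fewer than 50 reads by 0.209. For single exons 95% Wilson intervals are given per library. No molecular identifiers were counted, so these intervals describe counting error and nothing else.

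For the reading frame, each exon was placed in an annotated coding transcript of its gene, or added to one that lacks it, and the stop codon was read with and without the exon. A stop codon more than 50 nt before the last exon junction was called premature. Of the 937 events, 532 lay within coding sequence, where 321 exons were annotated in a coding transcript and 211 were added to one. A further 184 (19.6%) lay in the 5′ UTR, 88 (9.39%) held the start or the end of the coding sequence, 132 (14.1%) could not be placed in a coding transcript, and 1 lay in the 3′ UTR. Among 1318 exons of the same lengths and inclusion that preserve the frame, 97 (7.36%) lay in the 5′ UTR.

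Within coding sequence 375 of 532 events (70.5%) were predicted to carry a premature stop codon in a form, against 56 of 1063 frame-preserving events (5.27%), a contrast that follows from the lengths by which the exons were chosen. Skipping led to the stop codon in 209 events and inclusion in 165, while 1 event had a premature stop codon in both forms and 157 in neither. The stop codon lay at least in part in the cassette exon itself for 123 of the 165. Of these 165 exons, 163 were absent from the coding transcript and had to be added, whereas all 209 exons needed for an open frame were part of one. The procedure largely fixes this split. It starts from an annotated coding transcript with an open frame, so as a rule only the form changed from it can gain a premature stop codon. GENCODE lists a nonsense-mediated decay transcript that includes the exon for 122 of the 937 events and one that skips it for 106.

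The exons on either side of this division sat at opposite ends of the inclusion range. Exons that bring a premature stop codon had a median inclusion of 0.254 (quartiles 0.145 and 0.501), and exons whose skipping leads to one had a median of 0.8 (quartiles 0.681 and 0.861). In both classes the form that was more abundant was thus, at the median, the form with the open frame. Among events whose smaller inclusion junction had at least 0.5 times the reads of the larger, the medians were 0.189 for 55 exons of the former class, 47 of them with an inclusion under 0.5, and 0.804 for 134 exons of the latter, 13 of them under 0.5. Exons with no premature stop codon in either form had a median of 0.673 and exons of the 5′ UTR one of 0.482. Which exons were added to a transcript and which were annotated in one follows in part from how often they are included, and the measured inclusion is of transcripts that remain at steady state, so production and decay of the forms cannot be told apart.

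**Figure D1:**
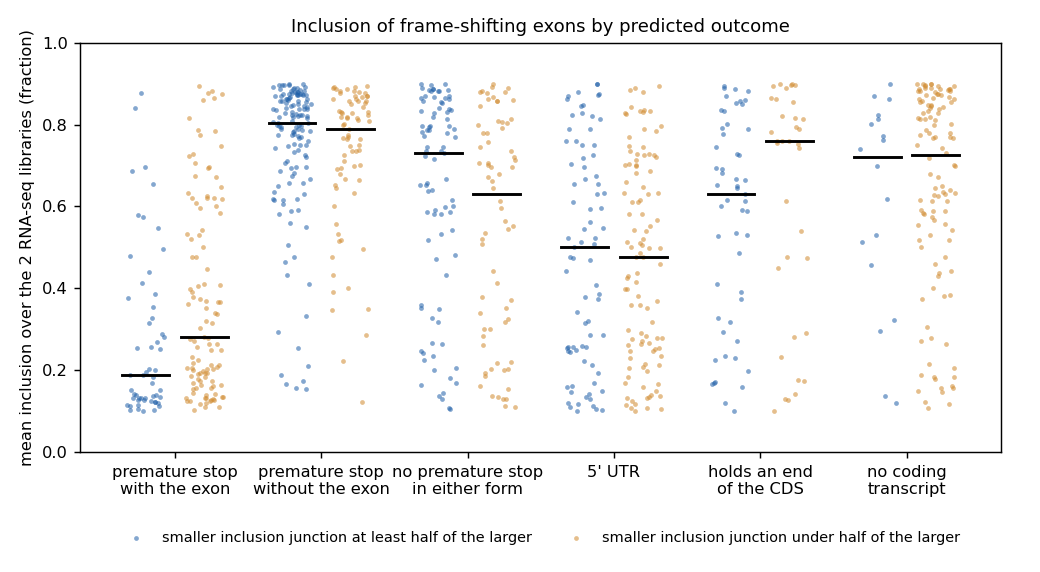
Mean inclusion over the male and female libraries (y axis, fraction) of each frame-shifting event by the predicted outcome (x axis), with events whose smaller inclusion junction had at least 0.5 times the reads of the larger in blue, the others in orange and group medians as black lines. Exons that bring a premature stop codon gather near the bottom (blue median 0.189) and exons whose skipping leads to one near the top (blue median 0.804); the single events of the 3′ UTR and with a premature stop codon in both forms are not drawn.

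Among predicted poison exons of named genes, the 112-nt exon of Hdac5, a class IIa histone deacetylase, was included at 0.229 (interval 0.173 to 0.298) in the male and 0.157 (0.111 to 0.218) in the female library. Its stop codon, at bases 99 to 101 of the exon, would end the reading frame after 83 codons in place of 1121, with 24 exons still to follow. The 139-nt exon of Oprl1, the nociceptin receptor, was included at 0.159 (0.108 to 0.230) and 0.107 (0.0639 to 0.175), and its stop codon at bases 62 to 64 would leave 95 of 367 codons. The 34-nt exon of Dlg1, a scaffold protein of synapses, stood higher, at 0.524 (0.443 to 0.605) and 0.543 (0.453 to 0.631), and would leave 705 of 927 codons. Its junctions were uneven, since the smaller had 0.104 times the reads of the larger. Read from its first base, the printed Dlg1 exon has no stop codon, so the prediction depends on the transcript to which the exon was added. In which frame most Dlg1 transcripts read the exon was not tested. In all 3 genes GENCODE lists the form with the exon as a nonsense-mediated decay transcript.

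Exons that are needed for the open frame were mostly included. The 80-nt exon of Snrpa1, which encodes the A′ protein of the U2 small nuclear ribonucleoprotein, was included at 0.734 (0.628 to 0.819) and 0.639 (0.543 to 0.725), and without it the frame ends after 154 codons in place of 255. The 91-nt exon of Clk4, a kinase of SR proteins, was included at 0.778 (0.651 to 0.868) and 0.776 (0.653 to 0.864), with 134 codons left without it of 481. For the 148-nt exon of A830018L16Rik the values were 0.809 (0.715 to 0.877) and 0.957 (0.882 to 0.985), with 40 of 462 codons left. GENCODE lists a nonsense-mediated decay transcript that skips the exon for each of the 3 genes. For Clk4 it also lists a protein-coding transcript that skips the exon, unlike the prediction.

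Where neither form met a premature stop codon, the exon usually sat at the end of the coding sequence. The next exon was the last exon of the transcript for 118 of these 157 events (75.2%), against 92 of 1007 frame-preserving events with no premature stop codon (9.14%). This follows in part from the 50-nt rule, because a stop codon in the last exon cannot be premature by it. Such exons are predicted to exchange one C terminus for another. That both forms were read follows from the inclusion range by which all events were chosen.

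Calcium pumps and transporters gave clear examples of the exchanged C terminus. The Atp2b1 exon was included at 0.706 (0.638 to 0.765) and 0.610 (0.537 to 0.679), for 1176 codons with it and 1220 without. The Atp2b3 exon was included at 0.602 (0.534 to 0.666) and 0.632 (0.561 to 0.697), for 1173 codons with it and 1220 without. The intervals of the paralogous exons, which differ in the bases shown in capitals above, overlapped in both libraries. The 97-nt exon of Slc4a4, a sodium bicarbonate cotransporter, was mostly skipped, at 0.0985 (0.0735 to 0.131) and 0.159 (0.120 to 0.208).

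The same arrangement occurred in RNA-binding proteins. The 53-nt exon of A2bp1 (Rbfox1), a neuronal splicing factor, was included at 0.647 (0.606 to 0.686) and 0.658 (0.607 to 0.706), for proteins of 394 and 417 codons. The 95-nt exon of Mbnl2, a splicing factor of the muscleblind family, was included at 0.163 (0.128 to 0.204) and 0.202 (0.158 to 0.254), for 373 and 379 codons. The 92-nt exon of Fxr1, an RNA-binding protein related to FMRP, was included at 0.485 (0.412 to 0.560) and 0.381 (0.320 to 0.446), for 621 and 539 codons.

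Cytoskeletal proteins were the list in which this outcome was most frequent, 8 of 12 events. The 37-nt exon of Add1, alpha-adducin, was included at 0.75 (0.715 to 0.782) and 0.787 (0.748 to 0.822). The stop codon of the shorter protein, of 663 against 766 codons, begins in this exon and ends in the last exon. A 34-nt version of the same Add1 exon, which starts 3 nt later, had 0.581 (0.531 to 0.630) and 0.647 (0.590 to 0.700). Both versions share 1 inclusion junction and the skipping junction, with 381 and 158 reads in the male library. On its own junction the 34-nt version had 58 reads there and the 37-nt version 568. The inclusion of the 34-nt version thus rests mostly on shared reads and is not a separate measurement. The 190-nt exon of Mtap4, a microtubule-associated protein, was included at 0.820 (0.784 to 0.851) and 0.773 (0.730 to 0.810).

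The prediction changes 1 exon at a time, and this matters where exons exclude each other. The AMPA receptor subunits Gria2 and Gria3 each carry a pair of neighbouring 115-nt exons, flip and flop, of which a transcript normally has 1, so that a junction on the partner's side is rarely read. The downstream Gria3 exon (chrX:39022678-39022792) had 2 and 46 reads on its inclusion junctions in the male and 0 and 63 in the female library, and the upstream one (chrX:39007987-39008101) had 55 and 2, and 49 and 0. The splicing factor gene U2af1 had the same pattern in a pair of 67-nt exons, with 59 and 2 reads in the male library for the one and 2 and 121 for the other. For the events of these pairs the predicted premature stop codon belongs to a transcript with both exons of the pair.

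Such uneven junctions were common. In 295 events (31.5%) the smaller inclusion junction had fewer than 0.2 times the reads of the larger, and in 107 of them 1 junction had no read in either library. Among frame-preserving events 249 (18.9%) were that uneven and 71 had a silent junction. The smaller junction had at least 0.5 times the reads of the larger in 426 frame-shifting events (45.5%) and in 725 frame-preserving ones (55%). Of the 165 exons that bring a premature stop codon 79 were uneven, against 24 of the 209 whose skipping leads to one. Which of the uneven events are something other than a simple cassette exon was not tested.

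**Figure D2:**
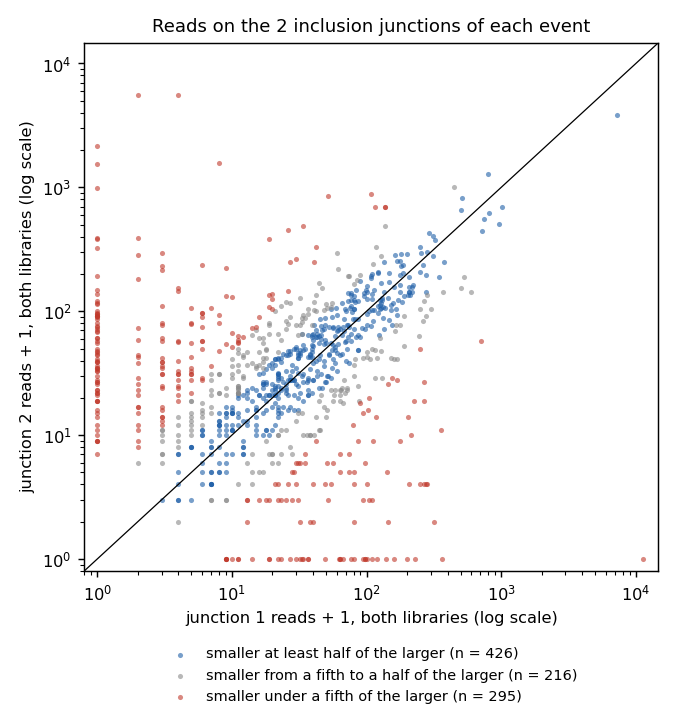
Reads on the first (x axis) and second (y axis) inclusion junction of each of the 937 events, summed over both libraries, with 1 added, on log scales; points on the diagonal line have equal reads. Events with a smaller junction of at least 0.5 times the larger (426, blue) follow the diagonal, and 295 events (red) lie far from it, 107 of them on an axis because 1 junction had no read.

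The gene lists differed in the share of their covered events that met the rule. In the lists, 5 of 25 covered events of SR proteins and their relatives (20%), 17 of 85 of the core spliceosome and splicing kinases (20%) and 25 of 150 of chromatin and transcription (16.7%) met the rule, against 9.97% of all covered events. The lists of mitochondria and metabolism (3 of 96, 3.12%), glia and myelin (2 of 45, 4.44%) and cytoskeleton and transport (12 of 264, 4.55%) lay below that share. The remaining lists were hnRNPs and neuronal splicing regulators (12 of 102, 11.8%), mRNA decay and translation (9 of 79, 11.4%), ion channels and transporters (7 of 79, 8.86%) and synapse and adhesion (19 of 252, 7.54%). Events of 1 gene are not independent, and these shares describe the selection.

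SR proteins bind exonic enhancers, and 3 of their 5 events brought a premature stop codon with the exon. The 80-nt exon of Son, a nuclear speckle protein, was included at 0.138 (0.0867 to 0.212) and 0.114 (0.0696 to 0.180), and GENCODE lists that form as a nonsense-mediated decay transcript. The 79-nt exon of Sfrs9 (Srsf9) was included at 0.163 (0.0851 to 0.290) and 0.183 (0.106 to 0.299), with 1 inclusion junction silent. GENCODE lists the Sfrs9 form with the exon as protein coding, unlike the prediction. All 5 events of the list were uneven.

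In the core spliceosome list 7 of 17 events brought a premature stop codon with the exon and 3 led to one without it. The U1 component Snrp70 had an 80-nt exon in the 5′ UTR at 0.133 (0.0802 to 0.213) and 0.190 (0.117 to 0.291). Among genes of mRNA decay and translation 6 of 9 events brought a premature stop codon. Cnot2, a subunit of the CCR4-NOT deadenylase, had a pair of overlapping exons, of 58 and 223 nt, which would leave 57 and 53 of 540 codons. The 58-nt exon was included at 0.597 (0.477 to 0.706) and 0.553 (0.405 to 0.692), and the 223-nt exon at 0.495 and 0.457. The pair shares 1 inclusion junction and the skipping junction, with 45 and 27 reads in the male library. On the other junction the 58-nt exon had 35 reads there and the 223-nt exon 8, so these inclusions are not separate measurements. Rnps1, a peripheral component of the exon junction complex, had a 122-nt exon in the 5′ UTR at 0.476 (0.387 to 0.567) and 0.528 (0.407 to 0.645).

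Exons in the 5′ UTR, where a shift of frame is not defined, were a large class. Mag, a myelin glycoprotein of oligodendrocytes, had a 53-nt exon with 5004 junction reads, included at 0.290 (0.270 to 0.310) in the male and 0.230 (0.212 to 0.249) in the female library. The 3 exons of the mitochondria and metabolism list were all of this class, namely Acsl3 (140 nt, 0.607 and 0.660), Mff (172 nt, 0.241 and 0.331) and Txnrd1 (107 nt, 0.866 and 0.932). Brd2, a bromodomain protein, had a 92-nt exon at 0.122 (0.0849 to 0.171) and 0.147 (0.103 to 0.206).

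Exons that hold an end of the coding sequence included the 91-nt exon of Elavl2, a neuronal RNA-binding protein, at 0.669 (0.580 to 0.748) and 0.667 (0.585 to 0.739). Stmn4, a stathmin that binds tubulin, had a 53-nt exon at 0.133 (0.104 to 0.169) and 0.183 (0.146 to 0.227). Camk2d, a calmodulin-dependent kinase, had an 89-nt exon at 0.455 (0.383 to 0.530) and 0.600 (0.515 to 0.679), and the intervals of its libraries overlapped by a small margin.

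The male and the female library were compared with a two-sided Fisher's exact test on the deposited inclusion and skipping counts, which contain exon body reads, with Benjamini-Hochberg adjustment over all 9396 covered events. This compares 2 libraries and not the sexes. At FDR ≤ 0.1, 88 of the 937 events (9.39%) were called, in 80 genes, against 4.26% of all covered events. Frame-preserving events with intermediate inclusion gave 136 calls (10.3%), and the difference from the frame-shifting ones was not tested. Events with inclusion near 0 or 1 are part of the background and have less room to differ. Inclusion was higher in the male library in 35 events (3.74%, against 2.20% of all covered events) and higher in the female library in 53 (5.66%, against 2.05%).

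With junction reads alone, 61 of the 88 events were called again in the same direction, and 28 of the 88 had uneven inclusion junctions. The called events were spread over the predicted outcomes, with 21 whose skipping leads to a premature stop codon, 20 in the 5′ UTR, 19 that bring a premature stop codon, 12 with none, 10 outside coding transcripts and 6 that hold an end of the coding sequence. Their median difference in inclusion was 0.256.

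Of the 5 events with the smallest p-values, Mbp, Ncdn and Dctn6 had the deepest coverage. Mbp, myelin basic protein, had a 128-nt exon with 56337 junction reads that was included at 0.104 (0.1 to 0.107) in the male and 0.121 (0.117 to 0.126) in the female library (Fisher's exact test with Benjamini-Hochberg adjustment, adjusted p = 3e-32), and 1 of its inclusion junctions was silent. Ncdn, neurochondrin, had a 70-nt exon at 0.191 (0.176 to 0.208) and 0.272 (0.249 to 0.296), adjusted p = 9.01e-08 by the same exact test, with 5 and 855 reads on its inclusion junctions in the male library. The 113-nt exon of Dctn6, a dynactin subunit, stood at 0.048 and 0.153 (adjusted p = 6.27e-07, exact test).

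The other 2, Gls2 and Zfp414, had larger differences at lower coverage. Gls2, a glutaminase, had a 125-nt exon that would bring a premature stop codon, with an inclusion of 0.581 in the male and 0.0606 in the female library (adjusted p = 2.1e-05, exact test). Its inclusion rests on 25 and 4 reads of a single junction against 9 and 31 skipping reads. GENCODE lists the Gls2 form with the exon as protein coding, and a nonsense-mediated decay transcript among those that skip it. The annotation thus does not bear out the predicted stop codon. The 77-nt exon of Zfp414, a zinc finger protein, stood at 0.0132 and 0.236 (adjusted p = 5.14e-06, exact test).

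By list, 2 of 17 events of the core spliceosome, 2 of 7 of ion channels and 2 of 2 of glia were called. The lists of SR proteins (1 of 5), mRNA decay (1 of 9), chromatin (1 of 25) and mitochondria (1 of 3) had 1 call each. Those of hnRNPs (12 events), synapse (19) and cytoskeleton (12) had 0. These counts are to be read against 9.39% of all 937 events. Of the list genes, 10 events were called. They include the Mag exon (adjusted p = 7.74e-05), the upstream U2af1 exon (0.163 in the male and 0.0884 in the female library, adjusted p = 0.011), the Slc4a4 exon (adjusted p = 0.0558), the Fxr1 exon (adjusted p = 0.0584), the Mff exon (adjusted p = 0.0662) and the Nfic exon (0.659 and 0.796, adjusted p = 0.0778), all by Fisher's exact test with Benjamini-Hochberg adjustment. Slc4a4 was higher in the female and Fxr1 in the male library. With junction reads alone the Mag, Slc4a4 and Mff exons were called again, and the U2af1 (adjusted p = 0.122), Nfic (adjusted p = 0.112) and Fxr1 (adjusted p = 0.242) exons were not, by the same exact test.

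**Figure D3:**
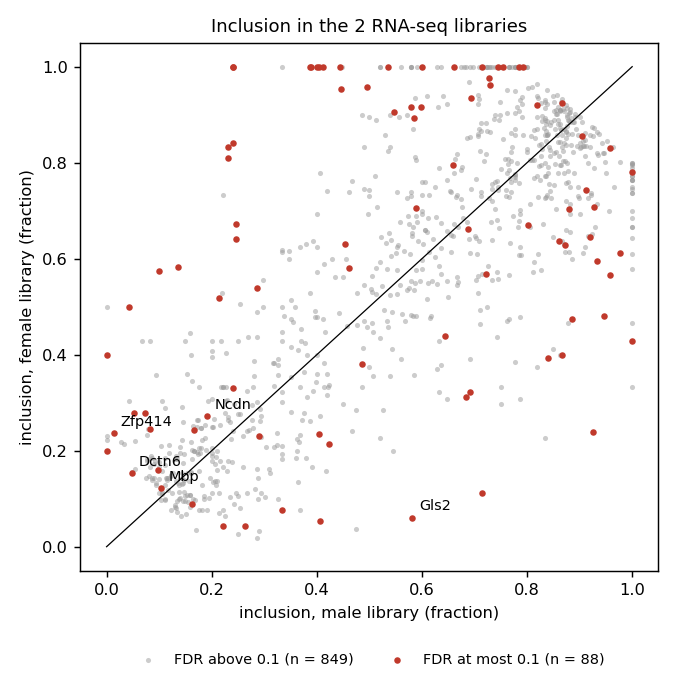
Inclusion in the male (x axis) and the female library (y axis) of each of the 937 frame-shifting events, as fractions, with the 88 events called at FDR of at most 0.1 in red and the line of equal inclusion in black. Mbp, Ncdn and Dctn6 lie close to the line with small p-values from deep coverage, whereas Gls2 lies far from it.

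NOVA tags were counted in a window of the exon and 400 nt on each side. These flanks were not limited to introns and can hold neighbouring exons. The MN libraries held 65961 to 871804 unique tags and the WSC libraries 2213104 to 6095995, of which 72 to 860 and 1974 to 5220 fell into windows of frame-shifting exons. In tags per 1000000 tags of the library, called normalised tags below, Chat (227 to 459 in MN, 37.5 to 53.6 in WSC), whose locus is part of the transgenic construct, and the motoneuron marker Chodl (154 to 336 against 44.1 to 56.0) were higher in every MN library, and the interneuron genes Slc6a5 (29.7 to 143 against 1510 to 1670) and Erbb4 (192 to 470 against 614 to 710) lower. Of the 893 windows 762 held a WSC tag, 514 an MN tag and 92 neither, and the median was 4 WSC tags. Tags in overlapping windows of neighbouring exons were counted for each of them. In bulk tissue, fewer cells of a type and less RNA per cell cannot be told apart, and a tag count follows both the binding and the amount of transcript.

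Within the windows MN tags lay less often in the exon than WSC tags. The exon held 12.3% to 25% of the tags of the 8 MN libraries (median 19.1%) and 29.7% to 31.3% of those of the 4 WSC libraries, and the groups did not overlap. The upstream flank held 36.8% to 53.1% against 32.5% to 34.6%, and the downstream flank 30.6% to 43.5% against 35.1% to 36.2%. Over all exon windows of the series the exon held 18.2% to 25.7% in MN and 37.5% to 40.4% in WSC, and the groups did not overlap there either.

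Against frame-preserving exons, the tags of frame-shifting exons were less often downstream. In WSC 35.1% to 36.2% lay downstream of a frame-shifting and 40.3% to 42.1% downstream of a frame-preserving exon, and in MN 30.6% to 43.5% and 43.6% to 51.3%. All 12 libraries had the lower share at frame-shifting exons, which is a description without a test. Over all exon windows of the series the downstream share was 33.9% to 35.7% in WSC and 40% to 45.2% in MN, so in WSC frame-shifting exons lay close to all exons. The density of YCAY was a mean of 6.40 per 400 nt upstream and 6.36 downstream of frame-shifting exons, 6.47 and 6.43 over all covered exons, and 6.73 and 6.92 at frame-preserving exons.

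**Figure D4:**
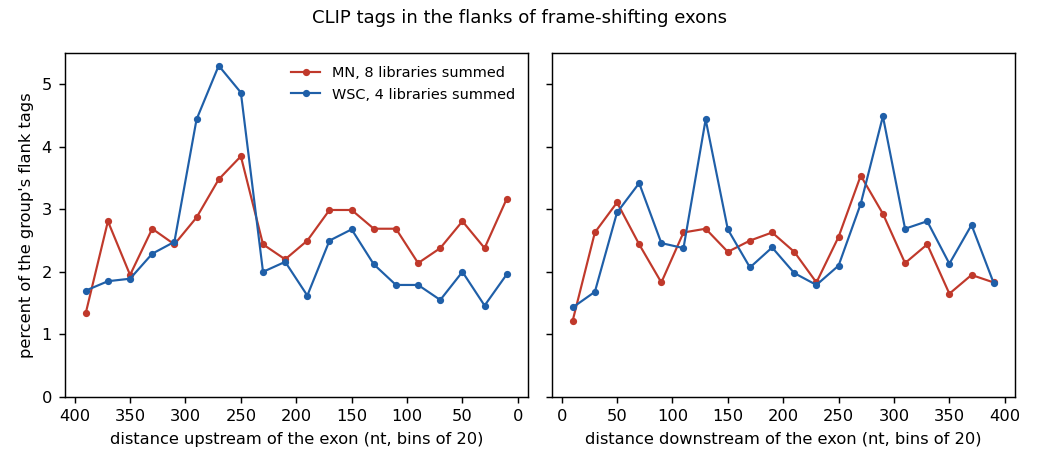
NOVA tags in the 400 nt upstream (left) and downstream (right) of frame-shifting exons, as the percent of a group's flank tags (y axis) in bins of 20 nt (x axis, distance from the exon), with the 8 MN libraries summed in red and the 4 WSC libraries summed in blue. The flanks can hold neighbouring exons and are not intron alone. The highest WSC bins, 260 to 280 nt upstream (5.3%) and 280 to 300 nt downstream (4.49%), hold 563 and 477 tags, of which 266 and 186 belong to Gpsn2, where tags shared by its overlapping exons are counted for each; the highest MN bin upstream, 240 to 260 nt from the exon, holds 3.85%.

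The windows with the most WSC tags were those of Mbnl1 (1023), Gpsn2 (644, shared by its 44-nt and 70-nt exons), Ncdn (473), Atf2 (448) and Esco1 (447). Their tags lay in different parts. Of the Mbnl1 tags 802 lay downstream and 171 in the exon, of the Gpsn2 tags 479 upstream and 0 in the 44-nt exon, and of the Atf2 tags 446 in the exon. Outside annotated exons, the 60-nt flank stretch with the most tags held 27 WSC tags for Mbnl1 and 5 for Gpsn2. Most flank tags of these windows thus lay in or beside annotated neighbouring exons. Gpsn2, an enoyl-CoA reductase of fatty acid elongation, had 1 nearly silent inclusion junction in both events, and the 44-nt exon had an inclusion of 0.838 in the male and 0.858 in the female library.

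MN and WSC tags per window were compared with edgeR's quasi-likelihood test over 860 windows that passed a filter on low counts. Of these, 83 belonged to frame-shifting exons. The filter is relative to library size, so a small MN library passes it with fewer tags than a WSC library. A window could thus pass through the group in which it is high, as those of Gria3 and Dync1i2 did through MN. At FDR ≤ 0.05, 18 of the 83 (21.7%) were higher in MN, against 21.3% of all windows tested, and 9 (10.8%) were lower, against 22.1%. Frame-preserving exons had 64 of 202 higher (31.7%) and 31 lower (15.3%). The median log2 difference was 0.39 for frame-shifting, 0.43 for frame-preserving and 0.11 for all windows tested, and the share that was higher was close to the background. The split into higher and lower rests on the scaling between groups of very different depth. With DESeq2 it was 6 higher and 24 lower, with DESeq2's size factors in edgeR 8 and 27, and with TMM factors over the windows themselves 2 and 31. These settings moved the median of all windows to -0.64, -0.61 and -0.96. Without the filter on low counts, 20 of 801 windows of frame-shifting exons were higher and 6 lower, against 158 and 106 of all 9291.

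A second comparison used the tags elsewhere on the host gene as the reference, so that it follows the share of the gene's tags that fall into the window and not the level of the gene. Of the 83 windows, 12 (14.5%) had a higher share in MN, against 16% of the 858 windows tested, and 11 (13.3%) a lower share, against 14.8%. The median log2 difference was 0.21 for frame-shifting, 0.43 for frame-preserving and 0.08 for all windows. Both comparisons called 15 of these windows, 9 of them higher and 6 lower in both. The comparisons use the same tags of the window and are not independent. How many of all windows tested were called in both was not counted. Between the lines #6 and #17, edgeR called 0 of 860 windows on the level and 0 of 858 on the share, with 45 and 52 at an unadjusted p under 0.05.

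The called windows were also counted by predicted outcome, to be read against 21.3% higher and 22.1% lower on the level and 16% and 14.8% on the share among all windows tested. Of 20 tested windows of exons that bring a premature stop codon, 8 were higher and 4 lower in MN on the level (median log2 difference 0.88), and 5 were higher and 3 lower on the share (0.79). This class includes Gria2 and the downstream Gria3 exon, whose predicted stop codon belongs to a transcript with both exons of the pair. It also holds exons with uneven junctions, among them Dync1i2 and 5730419I09Rik, called higher on the level, and Atf2 and Esco1, called lower. Of 11 windows whose exon is needed for the open frame, 1 was higher and 1 lower on the level (0.39), and 1 and 2 on the share (0.34). Of 19 with no premature stop codon in either form, 4 were higher and 1 lower on the level (0.04), but 2 higher and 4 lower on the share (0.14). Of 14 outside coding transcripts, 2 were higher and 0 lower on the level (0.4), and 3 and 0 on the share (0.14). Whether these classes differ was not tested.

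The downstream exon of Gria3 had the smallest p in both comparisons. Its window held 1.18, 1.80, 1.59 and 2.26 normalised tags in the 4 WSC libraries, and 0.00, 16.2 and 41.2 (lowest, median, highest) in the 8 MN libraries. A single MN library had no tag there and the other 7 lay above all WSC libraries. The log2 difference was 3.63 ± 0.40 (SE, edgeR adjusted p = 5.04e-17) on the level and 3.14 ± 0.40 (edgeR adjusted p = 1.86e-12) on the share of the host gene's tags, from 42 MN and 29 WSC tags, with 25 of the MN tags in the exon. The window of its upstream partner exon had log2 differences of 0.75 and 0.21, and whether the exons of the pair differ was not tested. In the stretch printed above 8 MN and 3 WSC tags lay over 2 YCAY, a number reached by 23.5% of 60-nt stretches in the flanks of covered exons.

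Dync1i2, an intermediate chain of the dynein motor, has a 94-nt exon that brings a premature stop codon after 76 of 632 codons and was included at 0.115 (0.0811 to 0.161) and 0.142 (0.101 to 0.197), with 1 silent junction. Its window held 1.18, 1.15, 2.12 and 1.81 normalised tags in WSC and 0.00, 11.0 and 30.3 in MN. All MN libraries with a tag lay above all WSC libraries, and 2 had none. The level was higher by 2.70 ± 0.51 (edgeR adjusted p = 2.8e-06) and the share by 2.50 ± 0.51 (edgeR adjusted p = 2.42e-05), but with the gene's other exon windows in place of the whole gene the share was -0.13.

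The other named windows with higher level in MN were those of 5730419I09Rik, Clk4 and Luc7l. The 200-nt exon of 5730419I09Rik had 3.24, 4.1, 3.54 and 4.52 normalised tags in WSC and 6.88, 14.9 and 30.3 in MN, with no overlap between the groups (log2 difference 1.86 ± 0.41, edgeR adjusted p = 6.68e-05). Luc7l, a gene of a U1-associated splicing factor, had 2.65, 4.1, 2.65 and 4.07 in WSC and 0.00, 10.6 and 42.7 in MN (1.94 ± 0.43, edgeR adjusted p = 8.05e-05), and its 71-nt exon brings a premature stop codon after 79 of 371 codons. Its share was higher by 2.11 ± 0.44 (edgeR adjusted p = 3.73e-05). The shares of 5730419I09Rik (0.82 ± 0.40, edgeR adjusted p = 0.0997) and Clk4 (0.97 ± 0.44, edgeR adjusted p = 0.0769) were not called. With TMM factors over the windows the level calls of 5730419I09Rik and Luc7l were lost. The Clk4 window had 0 tags in 5 of 8 MN libraries, and its call (2.04 ± 0.45, edgeR adjusted p = 6.68e-05) turned to -1.51 without replicate 4 of line #17 and was lost with DESeq2, with the replicate block and with TMM factors over the windows.

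Of the windows with the most WSC tags, those of Mbnl1, Atf2, Ncdn and Esco1 were lower in MN, and that of Gpsn2 was not called (log2 difference -0.35 ± 0.25, edgeR adjusted p = 0.245). Mbnl1, a splicing factor whose 223-nt exon lies in the 5′ UTR here, had 56.6, 58.4, 60.4 and 60.5 normalised tags in WSC and 0.00, 15.1 and 25.2 in MN, without overlap. The level was lower by -1.66 ± 0.26 (edgeR adjusted p = 1e-08) and the share by -1.43 ± 0.27 (edgeR adjusted p = 4.19e-06). This exon had uneven support, 0.265 times on its smaller junction, and an inclusion of 0.673 (0.476 to 0.824) and 0.784 (0.557 to 0.913).

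Atf2, a bZIP transcription factor, had 28.3, 27.2, 24.2 and 22.1 normalised tags in WSC and 0.00, 2.29 and 11.0 in MN, also without overlap (level -2.64 ± 0.45, edgeR adjusted p = 2.13e-07, and share -2.22 ± 0.48, edgeR adjusted p = 6.28e-05). Its 179-nt exon was joined almost entirely on 1 side, with 0.0121 times the reads on the smaller junction. Ncdn had 28.0, 26.9, 25.1 and 32.5 in WSC and 0.00, 4.01 and 22.0 in MN (level -2.25 ± 0.42, edgeR adjusted p = 1.79e-06), without overlap. The share of Ncdn's tags in the window was lower by -1.37 ± 0.47 (edgeR adjusted p = 0.0156).

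Esco1, a cohesin acetyltransferase, had 28.0, 23.5, 25.3 and 29.8 normalised tags in WSC and 0.00, 3.92 and 12.5 in MN, without overlap. Its level was lower by -2.17 ± 0.41 (edgeR adjusted p = 2.76e-06) and its share by -2.63 ± 0.40 (edgeR adjusted p = 3.61e-09), but by -0.42 and without a call against the gene's other exon windows. Its 200-nt exon had an inclusion of 0.389 in the male and 1.0 in the female library, on 53 junction reads. The A830018L16Rik window, with 7.37, 5.58, 6.02 and 7.23 in WSC, had tags in 2 of 8 MN libraries (highest 4.4). Its level was lower by -2.51 ± 0.77 (edgeR adjusted p = 0.00547), a call lost without replicate 3 of line #6, and its share by -3.99 ± 0.64 (edgeR adjusted p = 2.37e-08). All 109 WSC tags of that window lay in the exon whose skipping leads to the stop codon printed above.

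**Figure D5:**
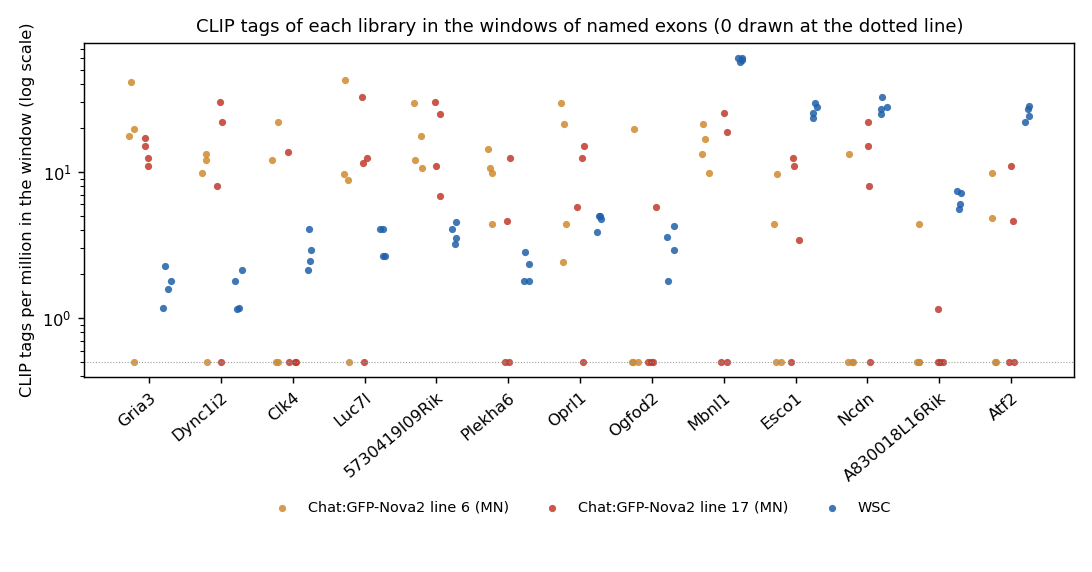
Normalised NOVA tags (y axis, tags per 1000000 tags of the library, log scale) of each of the 12 CLIP libraries in the windows of the named frame-shifting exons (x axis, ordered by the log2 difference between MN and WSC), with line #6 in orange, line #17 in red and WSC in blue; libraries with 0 tags are drawn on the dotted line. In the windows of Mbnl1, Esco1, Ncdn, A830018L16Rik and Atf2 every MN library lies below all 4 WSC libraries, and in that of 5730419I09Rik every MN library lies above them.

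The remaining named windows were chosen for their share. Oprl1 had 41.7% of the 36 MN tags of the gene in its window, against 13% of 607 WSC tags, which gave a log2 difference of 2.02 ± 0.52 (edgeR adjusted p = 0.00102) on the share and 0.79 ± 0.47 (edgeR adjusted p = 0.158) on the level. Tags there gathered upstream of the poison exon, 63 of 79 in WSC and 11 of 15 in MN. The printed stretch, with 40 WSC tags of 4 libraries and 10 MN tags of 5, holds 11 YCAY, overlapping matches counted, whereas 0.0223% of 107712 stretches of that length in the flanks of covered exons hold 8 or more. The call was lost with the libraries of 1 flow cell alone (1.21, edgeR adjusted p = 0.255) and with line #17 alone (1.70, edgeR adjusted p = 0.0574), and with the gene's other exon windows as the reference the share was -0.13.

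Plekha6, which encodes a pleckstrin homology domain protein, has a 124-nt exon that holds an end of the coding sequence and was included at 0.420 (0.318 to 0.528) and 0.361 (0.241 to 0.502). Its window held 2.36, 1.80, 2.83 and 1.81 normalised tags in WSC and 0.00, 7.24 and 14.5 in MN, and the share was higher by 2.22 ± 0.55 (edgeR adjusted p = 0.000723), with a level higher by 1.75 ± 0.53 (edgeR adjusted p = 0.00494). The call on the share was lost without replicate 3 of line #6, without replicate 4 of line #17, with line #17 alone and against the gene's other exon windows. The stretch 75 nt downstream holds 3 YCAY, as 7.1% of all stretches hold 3 or more.

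Ogfod2, which encodes a 2-oxoglutarate-dependent oxygenase domain, drew nearly all of its tags to this window, 86.9% of the gene's 61 WSC tags and 77.8% of its 9 MN tags. The fit gave a log2 difference of -2.15 ± 0.54 (edgeR adjusted p = 0.000797) for the share, far larger than the pooled percentages differ. It rests on 7 MN tags in 2 libraries, with 0 tags in the other 6 MN libraries, and is no measure of the size of a difference. The level was 0.11 ± 0.68 (edgeR adjusted p = 0.904). In WSC 51 of 53 tags lay upstream of its 128-nt exon, which was included at 0.770 (0.626 to 0.870) and 0.862 (0.751 to 0.928) and is needed for the open frame of 349 codons. The stretch printed above holds 7 YCAY, a number reached by 0.0483% of all stretches, with 41 WSC and 6 MN tags.

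By list, against 21.3% higher and 22.1% lower on the level and 16% and 14.8% on the share among all windows tested, 2 of 3 tested windows of SR protein genes were higher in MN on the level and 2 on the share, and 0 lower. Of 4 in the core spliceosome list 2 were higher on the level and 1 on the share, of 6 in the synapse list 1 and 1, of 5 in the cytoskeleton list 2 and 1, and of 3 in the ion channel list 1 and 1, with 0 lower in these lists. The hnRNP list had 5 tested windows, with 1 higher and 1 lower on the level and 0 and 1 on the share, and the chromatin list had 3, with the same counts. With so few tested windows, a list's count rests on single exons, and most of the 893 windows had too few tags to be tested.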

How the data were processed

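RNA-seq of whole spinal cord (2 libraries) and NOVA HITS-CLIP (12 libraries) were used. The deposited counts of reads per cassette exon event and per gene came from reads that the authors trimmed to 74 nt, mapped to mm9 with OLego and counted with Quantas. The authors derived the deposited RPKM values from the counts per gene and exon length, and these entered no comparison. The deposited CLIP files hold the positions of unique tags, which the authors mapped to mm9 with Novoalign and collapsed by random barcode. The deposited inclusion rate and the score of the tag files were not used.

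Events of both libraries were joined by name. The 13166 events on chromosomes of the reference were read against GENCODE vM1. The prediction of the frame used the transcript with the longest coding sequence and changed 1 exon at a time. Libraries were compared with Fisher's exact test (scipy 1.17.1) and Benjamini-Hochberg adjustment.

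Tags on the sense strand were counted per window and tested with edgeR 4.0.16 (quasi-likelihood, filterByExpr with a minimum count of 1) at FDR ≤ 0.05 over all windows. TMM factors came from 2416 host genes. For the share, the tags of the gene outside the window plus 0.5 served as the offset. The SE of a log2 difference was its size divided by the square root of the test's F statistic. It therefore restates the test and is not a separately measured spread. In simulated counts for the MN against WSC comparison of the level, fitted over 758 windows, 80.4% of windows changed 4-fold were called and 0.824% of unchanged ones. Of windows changed 2-fold, 36.5% were called on the level and 24.0% on the share, so a window without a call can still differ. The simulation gave every window the mean dispersion. DESeq2 1.42.0 was an alternative. YCAY was searched on the transcript strand, with overlapping matches counted.

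Replicates were separate libraries by their labels. Same-numbered MN and WSC libraries did not deviate together (correlations -0.16 to 0.08), so the numbers were not used as pairs. Read names showed 3 sequencing runs, and 4 MN libraries shared a flow cell with all 4 WSC libraries.

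Named exons were the members of each gene list with the most junction reads (up to 4), the 6 with the most WSC tags, the 5 with the smallest p between the RNA-seq libraries, and the 5 with the smallest p in each direction of each CLIP comparison. The 67-nt and 115-nt partner exons of U2af1, Gria2 and Gria3 were named after their values were seen. The members and the gene lists were chosen with earlier results of these data known.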

Additional observations from a re-analysis of the deposited data

Results flagged for a closer look

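In 6 of 54 groups of 4 libraries of a Chat line or WSC, 1 library lay far from the others by Dixon's criterion, which chance meets in about 1 in 20 groups of normally spread values. In each of them the library had tags in a window in which the other 3 libraries of the group had 0. For line #6 these were 13.2 normalised tags in the Ncdn window and 4.4 in the A830018L16Rik window, both in replicate 4, and 19.8 in the Ogfod2 window in replicate 1. For line #17 they were 13.8 in the Clk4 window, 1.15 in the A830018L16Rik window and 5.74 in the Ogfod2 window, all in replicate 4, the MN library with the most tags. A group with tags in 1 library only always meets the criterion, however few the tags. The number of flags is therefore no measure of deviant libraries.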

How the results depend on the processing

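A range of mean inclusion from 0.2 to 0.8 left 526 events, and a smaller inclusion junction of at least 0.5 times the larger, a condition chosen after seeing the data, left 426, of which 189 had a premature stop codon in a form and 29 differed between the RNA-seq libraries. At FDR ≤ 0.05 the libraries differed in 55 events. Of windows higher and lower in MN on the level, 18 and 9 as reported, DESeq2 called 6 and 24, DESeq2's size factors in edgeR 8 and 27, and TMM over the windows 2 and 31. Flanks of 200 nt gave 8 higher, and line #6 alone 11. On the share, 12 higher and 11 lower as reported, 200-nt flanks and line #17 alone gave 5 higher each, the gene's other exon windows 2 higher of 63 tested, DESeq2 7 lower, line #6 alone 4 lower and line #17 alone 6 lower. A minimum count of 10 left 3 windows, of which edgeR called 0 higher and 1 lower in both comparisons (0 higher at an unadjusted p under 0.05). With the replicate block the level had 13 higher and 7 lower and the share 8 and 6. Leaving out 1 library at a time gave 10 to 19 higher and 7 to 14 lower on the level, and 6 to 15 higher and 6 to 11 lower on the share. Without replicate 3 of line #6 or replicate 4 of line #17 there were 10 higher on the level and 6 on the share, and the share had 7 and 6 lower. Without replicate 4 of line #6 there were 14 lower on the level, and without its replicate 1 there were 7 lower on the share. The Clk4 level turned to -1.51 without replicate 4 of line #17 (up to 2.18 without another library), and the shares of Dync1i2 and Oprl1 were -0.13 against the gene's other exon windows. Of 20 calls of named windows 12 were kept under every alternative run, and of their 416 recomputed values 399 kept direction and call. The cause of these changes was not tested. The low MN depth limits all CLIP comparisons, and 1 male and 1 female library limit the RNA-seq.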
